A study of Schmidtea mediterranea with 8 samples.

Results

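The genes zpuf-4, zpuf-5, zpuf-6 and zpuf-7 of the planarian Schmidtea mediterranea were followed across sorted cell fractions. These 4 genes were picked by transcript identifier among 17882 transcripts in the table. The identifiers are SMED30018924 (zpuf-4), SMED30000827 (zpuf-5), SMED30030681 (zpuf-6) and SMED30006083 (zpuf-7). No cutoff on expression was applied, but earlier results of these data were known when the genes were chosen. Cells of adult worms of the asexual CIW4 strain were dissociated, stained with the DNA dye Hoechst and sorted into X1 and Xins, with 4 libraries each and no genetic or drug treatment in either fraction. X1 is the irradiation-sensitive fraction of dividing stem cells (neoblasts) with replicated DNA, and Xins is the irradiation-insensitive fraction of mostly post-mitotic cells, so Xins is a mixture of many differentiated and differentiating cell types rather than purified epidermal progeny. Nothing in the labels says that replicates came from separate worms or sorts, so p-values measure the spread between these libraries only.

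In planarians, neoblasts are the only dividing somatic cells. One class of them, the zeta class, marked by the transcription factor zfp-1, gives rise to the epidermis. Its daughters leave the cell cycle, pass through an early state that expresses prog-1 and a late state that expresses AGAT-1, move outward through the mesenchyme (the tissue between gut and body wall) and enter the epidermis. The name zpuf stands for a zeta-class associated protein of unknown function, given to small predicted secreted proteins with no recognized relatives, so zpuf is a naming group and not a family defined by sequence. In the study's in situ hybridization tables, zpuf-4 belongs to the genes of AGAT-1-like mesenchymal cells, zpuf-5 to genes seen in mesenchymal and epidermal cells, zpuf-6 serves as a reference marker of AGAT-1-like mesenchymal cells and discrete epidermal cells, and zpuf-7 was placed with gut as well as AGAT-1-like mesenchymal cells.

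The cloning primers of 3 of the genes are shown because they fix which transcript each name stands for. Each line gives the part of the left or right primer that pairs with the transcript or its complement, 5′ to 3′ and without the vector tail. No base is singled out by capitals.

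zpuf-4 left: caacaaaatgggttccg

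zpuf-4 right: tccttccttgatttcgg

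zpuf-5 left: ttcactgtgcatttccagcatc

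zpuf-5 right: acgcatctataaaagtaggagtcac

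zpuf-7 left: ccagcgtagttacatcacaacc

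zpuf-7 right: cgtgcgagaaattcctcagttg

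Levels are given as RPKM, reads divided by transcript length and by library size so that genes can be compared. The steps between RPKM values gave back whole reads, 14323705 to 15523242 per library, and these reads set the counting error of each value. Stem cell and replication transcripts check the fractions. All 9 (2 Piwi-like proteins, PCNA and MCM2 to MCM7) were higher in X1, as were 5519 of all 15563 transcripts tested. Their summed level in the Xins libraries was 4.89% to 8.94% of the X1 mean. Piwi-like protein 2 was the highest of them in Xins, at a mean of 204 RPKM against 1014 RPKM in X1. This check concerns stem cell transcripts in Xins and does not cover progeny cells in X1.

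All 4 zpuf genes were far higher in Xins than in X1, and no X1 library reached any Xins library. The X1 mean was 0.622% of the Xins mean for zpuf-4, 1.30% for zpuf-5, 1.53% for zpuf-6 and 1.28% for zpuf-7. This percentage is called the residual share below. A lower level in a sorted fraction cannot be told apart from fewer cells of the expressing type in it. Differences between fractions were common in these libraries. Of 15563 transcripts tested with limma, 77.2% passed an adjusted p of 0.05 in either direction, 41.7% passed and were higher in Xins, and 38.7% had every Xins library above every X1 library (71.2% had no overlap in either direction). A call or a lack of overlap is therefore no mark of these genes. All 4 genes also passed with a log2 difference under -4, as 4.21% of transcripts did. That limit was not among the planned comparisons, and earlier results of these data were known, so this share is a description and no test. With 1 RPKM added, transcripts that are low in Xins cannot reach the limit. With 5 RPKM added, zpuf-7 was at -3.98.

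zpuf-4 was the most abundant of the group in Xins. Its level was 753, 956, 788 and 554 RPKM in Xins replicates 1 to 4 (763 ± 165, SD, n = 4). In X1 replicates 1 to 4 it was 1.01, 3.37, 5.84 and 8.77 RPKM (4.75 ± 3.33, SD, n = 4), from 8, 25, 41 and 55 reads. The lowest Xins library thus lay far above the highest X1 library. The mean was 161-fold higher in Xins. On the log2(RPKM + 1) scale, X1 minus Xins came to -7.25 (SE 0.39, limma adjusted p = 8e-09), a log2 difference that placed zpuf-4 at rank 56 of 15563 from the most negative.

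zpuf-5 was close behind in Xins, at 585, 911, 677 and 498 RPKM (668 ± 178, SD, n = 4). In X1 it was at 2.89, 3.62, 17.6 and 10.6 RPKM (8.67 ± 6.90, SD, n = 4), from 18, 21, 97 and 52 reads. Replicates 3 and 4 held most of its X1 reads. The mean was 77.0-fold higher in Xins, and the log2 difference of -6.37 (SE 0.42) stood at rank 131 with a limma adjusted p = 4.9e-08.

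zpuf-6, the reference marker, was at 463, 617, 470 and 383 RPKM in Xins (483 ± 97.4, SD, n = 4). In X1 it was at 3.02, 3.33, 8.18 and 15.1 RPKM (7.40 ± 5.63, SD, n = 4), from 33, 34, 79 and 130 reads. Its X1 level was highest in replicate 4, as for zpuf-4. The mean was 65.4-fold higher in Xins, and the log2 difference of -6.07 (SE 0.37) stood at rank 163 with a limma adjusted p = 2.5e-08.

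zpuf-7 was the least abundant of the group, at 89.3, 111, 86.9 and 81.9 RPKM in Xins (92.4 ± 13.1, SD, n = 4). In X1 it was at 1.08, 2.56, 0.123 and 0.962 RPKM (1.18 ± 1.01, SD, n = 4), from 10, 22, 1 and 7 reads. Its lowest X1 library, replicate 3, was the one in which zpuf-5 was highest. The mean was 78.2-fold higher in Xins. Its log2 difference of -5.53 (SE 0.28) stood at rank 249 with a limma adjusted p = 5.9e-09. With so few reads that difference depends on the value added before the logarithm, and was -6.63 with 0.1 RPKM added and -3.98 with 5 RPKM added, so the place of zpuf-7 in the order of log2 differences is not settled.

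**Figure D1:**
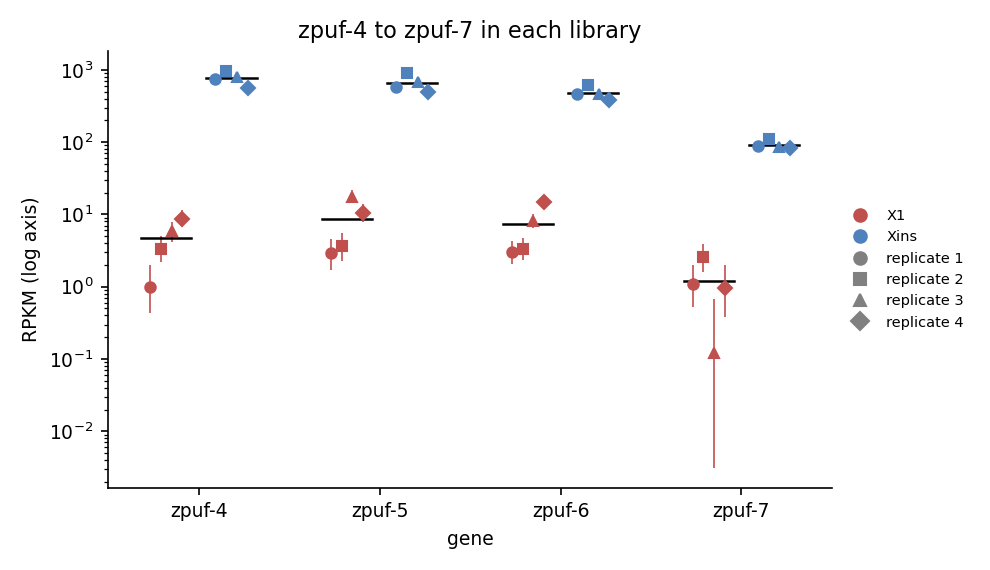
Level of each zpuf gene in each library, in RPKM on a log axis. Red points are X1 and blue points Xins, the point shape gives the replicate number, horizontal lines are means over 4 libraries and error bars are exact Poisson 95% intervals, which cover counting error only. In X1 zpuf-4 lies between 1.01 and 8.77 RPKM, and in Xins between 554 and 956 RPKM.

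In Xins the levels fell in the same order in all 4 libraries, zpuf-4, zpuf-5, zpuf-6 and then zpuf-7. Over the 4 libraries the ranges of zpuf-4 and zpuf-5, and those of zpuf-5 and zpuf-6, overlapped, but the genes share their libraries and within each library the order held. This order is in RPKM and depends on the division by length (smallest possible lengths 532, 417 and 732 nt for zpuf-4, zpuf-5 and zpuf-6). In reads, zpuf-6 was above zpuf-5 in every Xins library (5670, 7197, 5473 and 4630 against 4084, 6053, 4489 and 3424). A length error would recur in every library, so the repeated order does not check it. The zpuf-4 to zpuf-5 ratio within a library was 1.05 to 1.29, and the zpuf-5 to zpuf-6 ratio was 1.26 to 1.48. On the log2 scale the mean difference was 0.20 (SD 0.12, n = 4) for the former and 0.45 (SD 0.11, n = 4) for the latter. zpuf-7 stood well apart, with zpuf-6 at 4.68 to 5.53 times its level and no overlap. Among all 17882 transcripts ordered by RPKM, zpuf-4 was at place 166 to 244 across the Xins libraries, zpuf-5 at 173 to 275, zpuf-6 at 251 to 346 and zpuf-7 at 1194 to 1559.

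In X1 this order was not kept. zpuf-6 was highest of the 4 in replicates 1 and 4, and zpuf-5 in replicates 2 and 3. zpuf-4, first in every Xins library, was the lowest of the group in X1 replicate 1 and came after both zpuf-5 and zpuf-6 in replicates 3 and 4. Several of these places lie within counting error. In replicate 1 zpuf-4 had 8 reads and zpuf-7 had 10, zpuf-6 (3.02 RPKM) and zpuf-5 (2.89) were nearly level, and in replicate 2 zpuf-5 (3.62), zpuf-4 (3.37) and zpuf-6 (3.33) were too. The place of zpuf-4 among all transcripts ran from 6996 to 12741 across the X1 libraries, that of zpuf-5 from 5068 to 10061, that of zpuf-6 from 5491 to 9952 and that of zpuf-7 from 10294 to 16019.

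The X1 libraries also differed from each other by more than counting error. For zpuf-4, the exact Poisson 95% interval was 0.434 to 1.98 RPKM in replicate 1 and 6.61 to 11.4 RPKM in replicate 4. For zpuf-5, it was 1.71 to 4.56 RPKM in replicate 1 and 14.3 to 21.5 RPKM in replicate 3. The intervals of zpuf-7 were wide, 0.00311 to 0.684 RPKM in replicate 3 and 1.60 to 3.88 RPKM in replicate 2, yet they did not meet either. The coefficient of variation over the X1 libraries was 70.1% for zpuf-4 and 79.5% for zpuf-5, against 21.6% and 26.6% over the Xins libraries.

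The residual share, which compares each X1 library with the Xins mean, followed from these levels. It was 0.132% to 1.15% for zpuf-4 over the 4 X1 libraries, 0.432% to 2.64% for zpuf-5, 0.624% to 3.12% for zpuf-6 and 0.133% to 2.77% for zpuf-7. The ranges of all 4 genes overlapped. Single X1 libraries carried much of the mean share, which was 0.853% for zpuf-5 without replicate 3, 1.00% for zpuf-6 without replicate 4 and 0.783% for zpuf-7 without replicate 2. Among the 2318 transcripts with a Xins mean of at least 50 RPKM the median residual share was 88.6%, and 304 had a share under 2%. From the lowest share upward, zpuf-4 was at place 123 of these 2318, zpuf-7 at 222, zpuf-5 at 228 and zpuf-6 at 262.

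**Figure D2:**
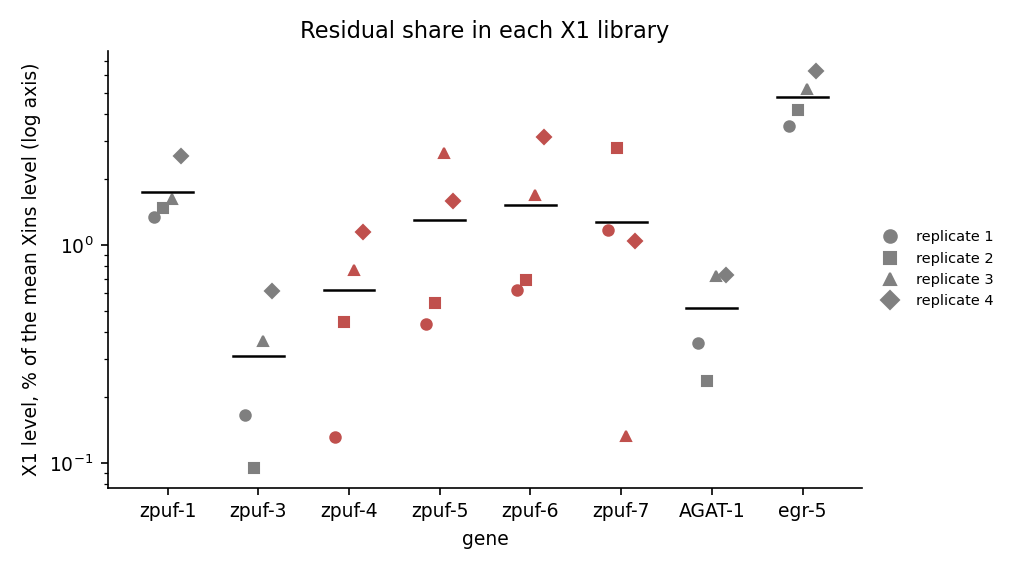
X1 level as a percentage of the mean Xins level, on a log axis, for each X1 library. Red points are zpuf-4 to zpuf-7, grey points are zpuf-1, zpuf-3, AGAT-1 and egr-5, the point shape gives the replicate number and lines mark the ratio of means. The mean share of zpuf-4 (0.622%) lies near that of AGAT-1 (0.511%), and egr-5 lies highest at 4.79%. zpuf-2 had no read in X1 and is not drawn.

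Pairs of genes were then compared inside each library, to ask whether some members were lowered more strongly in X1 than others. Against zpuf-5, zpuf-4 differed by -0.08 to -1.45 on the log2(RPKM + 1) scale in X1 and by 0.07 to 0.36 in Xins. Against zpuf-6, it differed by -1.001 to 0.013 in X1 and by 0.53 to 0.74 in Xins. Against zpuf-7, it differed by -0.06 to 2.61 in X1 and by 2.74 to 3.17 in Xins. In each of these 3 pairs every X1 library lay below every Xins library on this scale. For zpuf-5 and zpuf-6 the plain RPKM ratios were separated too. The zpuf-4 to zpuf-5 ratio was 0.331 to 0.933 in X1 and 1.05 to 1.29 in Xins, and the zpuf-4 to zpuf-6 ratio was 0.334 to 1.01 in X1 and 1.45 to 1.68 in Xins. The zpuf-4 to zpuf-7 ratio was not, at 0.928 to 47.6 in X1 and 6.77 to 9.07 in Xins, and as a residual share zpuf-4 was above zpuf-7 in X1 replicate 3 (0.765% against 0.133%) and replicate 4 (1.15% against 1.04%). The separation of that pair thus comes from the 1 RPKM added before the logarithm.

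The mean difference between fractions was -0.88 for zpuf-4 against zpuf-5, -1.18 against zpuf-6 and -1.72 against zpuf-7. Each had p = 0.0286 in an exact two-sided permutation test over the 8 libraries, the smallest p that 4 against 4 libraries allow, and 0.0571 after Benjamini-Hochberg adjustment over the 6 pairs, so none passed 0.05. With nothing added, an alternative chosen after seeing the data, zpuf-4 against zpuf-7 was at -0.77 with an exact p of 0.6, while zpuf-4 against zpuf-5 (-1.07) and against zpuf-6 (-1.36) kept the exact p of 0.0286 (adjusted p = 0.0857). The 3 pairs are not separate evidence, since they share the zpuf-4 values.

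The other 3 pairs overlapped between fractions. zpuf-5 against zpuf-6 changed by -0.30 (exact permutation p = 0.457), zpuf-5 against zpuf-7 by -0.84 (exact permutation p = 0.314) and zpuf-6 against zpuf-7 by -0.54 (exact permutation p = 0.457), each with an adjusted p of 0.457. These p-values do not show that the genes behave alike. Single X1 libraries weighed on them. Without replicate 3, exact tests gave adjusted p = 0.0343 for zpuf-5 against zpuf-6 (-0.59), for zpuf-5 against zpuf-7 (-1.54) and for the 3 pairs with zpuf-4, but not for zpuf-6 against zpuf-7 (-0.94, adjusted p = 0.314). The pair of zpuf-6 and zpuf-7 moved most without replicate 2 (to -0.027). For the 3 pairs with zpuf-4, the exact p without replicate 3 was still 0.0286. Their adjusted p fell only because more pairs reached that smallest p. Whichever Xins library was left out, no pair had an adjusted exact p under 0.171.

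**Figure D3:**
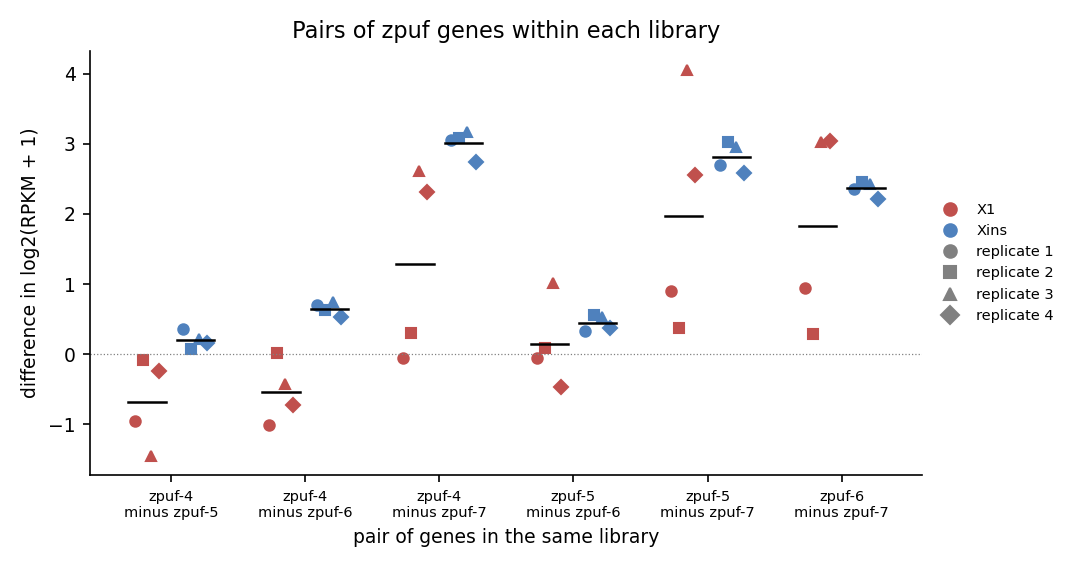
Difference in log2(RPKM + 1) between the genes of each pair within a library. Red points are X1 and blue points Xins, the point shape gives the replicate number and lines are means over 4 libraries. In the 3 pairs with zpuf-4 the red points all lie below the blue ones (for zpuf-7 only because 1 RPKM is added), and X1 points scatter more widely (SD 0.43 to 1.67) than Xins points (SD 0.09 to 0.20) in every pair.

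Within Xins the 4 genes shared their highest and their lowest library. Replicate 2 was the highest library and replicate 4 the lowest for each of them. Their summed level was 129% of the Xins mean in replicate 2 and 75.6% in replicate 4. The same libraries were highest and lowest for zpuf-1 and zpuf-3. They were also so for the sum of 47 transcripts with an AGAT-1-like mesenchymal in situ pattern (121% and 78.2%). That sum leaves out zpuf-4 but holds zpuf-3, so it is not separate from the zpuf genes. zpuf-2 was also lowest in replicate 4 but highest in replicate 1, at 42.3 RPKM against 24.1 in replicate 2. AGAT-1, the late progeny marker named after an amidinotransferase, did not follow this order. It was at 777, 803, 763 and 823 RPKM in Xins replicates 1 to 4, highest in replicate 4. Of the 14 candidate genes with AGAT-1 overlap outside the zpuf group, 3 were highest in Xins replicate 2 and 7 lowest in replicate 4. The share of all transcripts with this order in Xins was not counted, so the order cannot be called particular to the zpuf genes.

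Within X1 the genes shared their order less closely. The summed level of the 4 genes was 7.99, 12.9, 31.8 and 35.4 RPKM in X1 replicates 1 to 4, which is 0.398%, 0.642%, 1.58% and 1.76% of the Xins mean. The 47 transcripts with the AGAT-1-like pattern had summed shares of 1.53%, 1.96%, 1.98% and 2.93%. Both sums were lowest in replicate 1 and highest in replicate 4, but this was not particular to late progeny. Summed RPKM over 24 transcripts with a gut pattern was 145, 159, 205 and 222 in the same libraries. Over 8 with a neoblast pattern it was 4109, 4281, 4190 and 4727. The 9 stem cell and replication transcripts had sums of 4684, 5100, 4630 and 4566, lowest in replicate 4. The size of the change differed. From replicate 1 to 4, the zpuf sum went from 36.3% to 161% of its X1 mean and the AGAT-1-like sum from 73.0% to 140%. The gut sum went from 79.6% to 122% and the neoblast sum from 95.0% to 109%. Of 15335 transcripts tested and seen in X1, 36.3% were highest in replicate 4 and 33.1% lowest in replicate 1. Of the 14 candidate genes with AGAT-1 overlap outside the zpuf group, 11 were highest in replicate 4 and 6 lowest in replicate 1, and AGAT-1 itself was lowest in replicate 2 (1.89 RPKM, against 2.80 in replicate 1). The part of the library scaling and of these shared differences between X1 libraries in the levels of the zpuf genes was not tested.

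**Figure D4:**
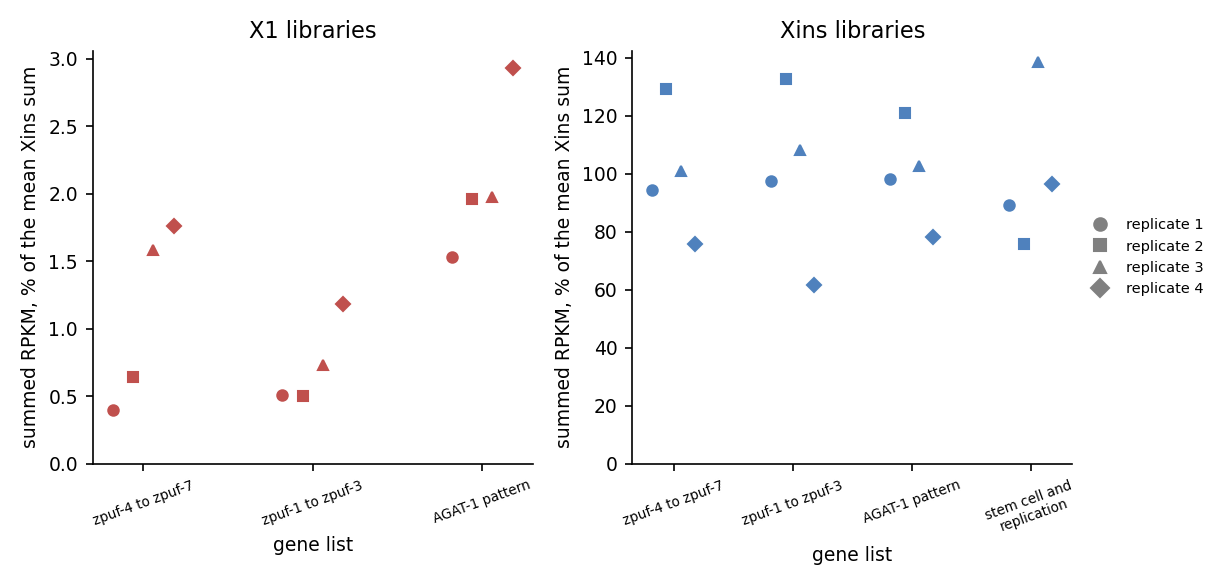
Summed RPKM of each gene list in each library, as a percentage of the mean of the same sum over the 4 Xins libraries, with X1 libraries on the left and Xins libraries on the right. The point shape gives the replicate number. The AGAT-1 pattern list leaves out zpuf-4 but holds zpuf-3, which is also in the zpuf-1 to zpuf-3 list. The zpuf-4 to zpuf-7 sum lies between 0.398% and 1.76% in X1, and between 75.6% and 129% in Xins.

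The genes zpuf-1, zpuf-2 and zpuf-3 lay on either side of these values. The study also uses the name zpuf-8, which is paired with no identifier in the tables used here and was not analysed. zpuf-1 reached 388 ± 79.2 RPKM in Xins against 6.79 ± 2.16 RPKM in X1 (SD, n = 4), a residual share of 1.75% and a log2 difference of -5.65 (limma adjusted p = 5.8e-10). zpuf-3 was the most abundant in Xins of zpuf-1 to zpuf-7, at 885 ± 306 RPKM against 2.74 ± 2.07 RPKM in X1 (SD, n = 4), with a residual share of 0.310% and a log2 difference of -7.98 (limma adjusted p = 2.5e-09). zpuf-2 had 0 reads in all 4 X1 libraries and 817 in Xins, where its level was 29.5 ± 9.07 RPKM (SD, n = 4). For this count of 0, 3 reads over the X1 group were taken as the upper limit. At that limit the zpuf-2 mean was 225-fold higher in Xins, and its share in X1 was 0.445%. The limit allows for counting error only and not for the spread between X1 or Xins libraries, so a lower fold is not excluded. The residual shares of zpuf-1 to zpuf-7 thus ran from 0 reads to 1.75%, and their Xins levels from 29.5 to 885 RPKM.

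Reference markers of the same late progeny enclosed the group as well. AGAT-1 reached 791 ± 27.0 RPKM in Xins against 4.04 ± 2.00 RPKM in X1 (SD, n = 4), with a residual share of 0.511%. Its mean Xins level lay within the zpuf-4 range of 554 to 956 RPKM. egr-5, a transcription factor of the early growth response type, reached 51.3 ± 3.95 RPKM in Xins against 2.46 ± 0.632 RPKM in X1 (SD, n = 4). Its share was 3.50% to 6.30% over the X1 libraries, above that of zpuf-4 to zpuf-7 in any X1 library (at most 3.12%).

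Of the 14 candidates with AGAT-1 overlap, 13 passed as higher in Xins and none as higher in X1, with a median log2 difference of -4.79 and a median residual share of 1.77%. Over all transcripts tested 41.7% passed as higher in Xins, the median log2 difference was -0.11 and the median share 90.9%. pla2, named for a phospholipase, had the lowest share of the list (0.395%). acsl-2, named for an acyl-CoA synthetase, had the highest (65.2%) and did not pass (limma adjusted p = 0.088). All 48 transcripts of the AGAT-1-like pattern were higher in Xins, with a median log2 difference of -5.51 and a median share of 1.26%. The median over zpuf-4 to zpuf-7 was -6.22, with a median share of 1.29%. The study drew the in situ lists from genes lowered by RNAi in other libraries, and the pattern list holds zpuf-3 and zpuf-4.

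Gut genes are of interest beside zpuf-7 because of its gut staining. Of the 7 gut candidates, 5 passed as higher in Xins and 2 as higher in X1. Their median residual share was 35.1%. Their summed level was 77.1 to 99.3 RPKM in X1 and 70.3 to 98.5 RPKM in Xins, and the ranges overlapped. Most of the X1 sum came from zfp-2, at 59.1 to 78.0 RPKM in X1 and 25.0 to 38.8 RPKM in Xins. The overlap therefore says little about the other gut candidates. zfp-2, with a residual share of 201%, is in both gut lists used here. The 20 tested transcripts with a gut in situ pattern had 17 higher in Xins, 3 higher in X1 and a median residual share of 16.3%. Of all transcripts tested, 41.7% passed as higher in Xins. The residual share of zpuf-7 (1.28%, from 40 X1 reads) was below both medians and close to the median of the AGAT-1-like pattern. It was also below the range of the gut candidates (3.32% to 201%). It lay inside the ranges of the gut pattern (0.610% to 201%) and of the AGAT-1-like pattern (0% to 41.9%). The share therefore does not place zpuf-7 with either pattern.

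Epidermal genes give the comparison for zpuf-5, which was also placed in epidermal cells. vim-3, an epidermal candidate named for an intermediate filament protein, was low in both fractions and had a residual share of 13.8%. Of the 4 transcripts with an epidermal pattern other than zpuf-5, 3 were higher in Xins, against 41.7% of all transcripts tested. These were vim-3, SMED30014019 with a residual share of 13.4% and SMED30003044 with 2.55%. The remaining one, SMED30006065, was higher in X1, at 2.35 to 4.13 RPKM against 0.00819 to 0.136 RPKM in Xins (log2 difference 1.89, limma adjusted p = 8.4e-07). The residual share of zpuf-5 (1.30%) was the lowest of the 5 listed transcripts, although in X1 replicate 3 alone (2.64%) it was above the mean share of SMED30003044. SMED30035148, the transcript listed with a pattern like that of zpuf-6, was at 0, 0.694, 1.34 and 2.05 RPKM in X1 replicates 1 to 4 and at 85.7 to 167 RPKM in Xins. Its residual share was 0.851% and its log2 difference -5.98, and it too was highest in X1 replicate 4 and lowest in Xins replicate 4.

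Likeness of profiles was measured as the root-mean-square difference in log2(RPKM + 1) over the 8 libraries, which is small only where level and pattern are both alike. zpuf-5 and zpuf-6 were the closest pair of the group at 0.52, and zpuf-6 was the fifth closest of 15562 other transcripts to zpuf-5. zpuf-4 was at 0.64 from zpuf-5 and at 0.65 from zpuf-6. zpuf-7 was at 2.28 to 2.64 from the other 3 genes.

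Outside the group, the transcript closest to zpuf-4 was SMED30011418, at 0.32, followed by SMED30015168 at 0.38 and SMED30026663 at 0.41. SMED30019678 was closest to zpuf-5 at 0.36, followed by SMED30018274 at 0.39 and SMED30004574 at 0.41. SMED30025925 was closest to zpuf-6 at 0.36, followed by SMED30016225 at 0.39 and SMED30019678 at 0.41. SMED30019678 thus appeared beside both zpuf-5 and zpuf-6, at 3.75, 3.22, 14.4 and 13.5 RPKM in X1 replicates 1 to 4.

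The closest neighbour of any member was SMED30020248, at 0.19 from zpuf-7. It was at 0.818, 3.14, 0.265 and 1.04 RPKM in X1 replicates 1 to 4, from 7, 25, 2 and 7 reads, so its lowest X1 library was also replicate 3 and its highest also replicate 2. In Xins it was at 83.0, 116, 88.7 and 108 RPKM. Its log2 difference was -5.56, against -5.53 for zpuf-7. Whether SMED30020248 shares sequence with zpuf-7 was not examined here, and reads of near-identical transcripts could be split between them. The next closest to zpuf-7 were SMED30032774 at 0.39 and SMED30034847 at 0.41, and SMED30034847 had 0 reads in X1 replicate 3.

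By Pearson correlation over the same 8 libraries, the transcripts most like zpuf-4, zpuf-5, zpuf-6 and zpuf-7 were SMED30022628 (r = 0.999), SMED30003345 (r = 0.998), SMED30002834 (r = 0.999) and SMED30020248 (r = 0.998). The libraries form 2 fractions far apart in level, so such values mostly restate the difference between X1 and Xins and are given as a description. SMED30022628, for example, averaged 22.4 RPKM in X1 against 534 RPKM in Xins, a higher X1 level than any of the 4 zpuf genes.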

How the data were processed

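RNA of Hoechst-sorted X1 and Xins cells (4 libraries each) was made by the authors into polyadenylated RNA libraries from 100 ng of RNA. The authors deposited RPKM values for 17882 transcripts. The submitters' processing notes name CASAVA 1.8.2, Bowtie and edgeR, and the sources used here do not give the mapping settings for these libraries. The zpuf genes, marker lists and comparisons were chosen with earlier results of these data known. Groups came from the labels, and all 8 columns matched a sample.

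Every row divided into whole reads in all libraries (within 0.001 read, taking the smallest possible length). The size each library had been divided by was 0.823 to 1.15 times its recovered depth, so the deposited values had already been scaled between libraries. These reads gave exact Poisson 95% intervals, for counting error only.

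Transcripts with a mean of at least 1 RPKM (15563) were fitted with limma 3.58.1 in R 4.3.3 on log2(RPKM + 1) with a mean-variance trend, two-sided, with Benjamini-Hochberg adjustment over all of them. This scale understates changes of low transcripts. Pairs of zpuf genes were compared by exact permutation over libraries (Python 3.11.15, numpy 2.4.6, pandas 2.3.3, scipy 1.17.1). Alternatives were other added values, filters, scalings, a fit to the recovered reads, a replicate block and leaving out each library. The fit was also run on simulated data, with the spread between libraries set below that of the zpuf genes in X1. That run does not check the fit at their spread. Named were the 4 genes, zpuf-1 to zpuf-3, AGAT-1, egr-5, the AGAT-1 overlap candidates with the lowest and highest residual share, and the 3 transcripts closest to each gene by root-mean-square difference and by Pearson correlation, of which the first is printed for the latter. SMED30035148, zfp-2, Piwi-like protein 2 and the epidermal transcripts, vim-3 included, were named after their values were seen. Primer parts were read from the study's primer table, with the tail common to its primers removed, and zpuf-6 was not found in it.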

Additional observations from a re-analysis of the deposited data

How the results depend on the processing

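Each of the 4 genes stayed higher in Xins and past 0.05 under all 21 alternatives, with a largest limma adjusted p of 3.3e-06 (zpuf-7 with 0.1 RPKM added) and an exact permutation p of 0.0286 for each gene, the smallest that 4 against 4 libraries allow. Log2 differences ran from -7.74 to -6.34 for zpuf-4, -6.78 to -5.72 for zpuf-5, -6.46 to -5.38 for zpuf-6 and -6.71 to -3.98 for zpuf-7. With 0.1 RPKM added, or with limma-voom on recovered reads, zpuf-7 came second after zpuf-4 in the order of log2 differences rather than last. Residual shares moved by less than 1 SD of the X1 libraries under each of 13 alternatives, a wide margin at these SDs (0.447% to 0.786% for zpuf-4, 0.853% to 1.59% for zpuf-5, 1.00% to 1.83% for zpuf-6, 0.783% to 1.94% for zpuf-7).

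Pair differences depended on the value added. With 5 RPKM added, exact tests gave adjusted p = 0.0343 for zpuf-4 against zpuf-5 (-0.62), zpuf-6 (-0.96) and zpuf-7 (-2.36), and for zpuf-5 (-1.74) and zpuf-6 (-1.40) against zpuf-7. With 0.1 RPKM added, zpuf-5 against zpuf-7 turned to 0.039 and zpuf-6 against zpuf-7 to 0.33, and with nothing added (chosen after seeing the data) to 0.31 and 0.59. The low reads of zpuf-7 in X1 limit these pairs. Leaving out 1 library at a time gave -1.08 to -0.63, -1.37 to -1.03 and -2.16 to -1.28 for zpuf-4 against zpuf-5, zpuf-6 and zpuf-7, -0.59 to -0.095 for zpuf-5 against zpuf-6, -1.54 to -0.31 for zpuf-5 against zpuf-7 and -0.94 to -0.027 for zpuf-6 against zpuf-7.

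Same-numbered X1 and Xins libraries did not deviate together in a uniform way. For replicates 1 to 4, r was 0.27, -0.19, -0.12 and -0.02 across transcripts, which are not independent replicates. Differently numbered libraries gave r of -0.23 to 0.20, so replicate 1 had the highest value of any combination. The numbers were not taken as pairs. With a replicate block, the log2 differences were the same values, and 11911 transcripts differed instead of 12011 (limma-voom on the recovered reads called 11958). The paired exact test over 4 pairs cannot go below 0.125, and gave an adjusted p of 0.25 for each pair with zpuf-4.

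Over all transcripts, 6492 were higher in Xins and 5519 in X1. With a minimum mean of 5 RPKM, which leaves fewer transcripts tested, 3708 were higher in Xins. Quantile normalization changed the split to 5414 higher in Xins and 6902 in X1. Over the scalings, the median difference across transcripts moved between -0.32 and 0.22 (log2), small beside those of the zpuf genes. The list counts under each alternative were added after seeing the data. Of the AGAT-1 overlap candidates 12 to 14 were higher in Xins, of the AGAT-1-like pattern 46 to 48, of zpuf-1 to zpuf-3 all 3, and of the gut candidates 2 to 5.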
